A study of Mus musculus with 5 samples.

Results

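Refed mice were compared with fasted mice in the CCK- fraction of the small intestine epithelium, the sorted cells that a Cck-driven reporter had not labeled. The 6 libraries were chosen by the cell label and the feeding state given in the bulk table, and no measured value entered the choice. They are 6 of the 12 bulk libraries of the series, which also holds 1 droplet library that was not used here. All mice were of strain C57Bl/6J, carried Cck-Cre and R26-LSL-tdTomato, and were aged 6 to 8 weeks. Mice A, B and F were fasted overnight, and mice C, D and E were fasted and then refed Ensure, a liquid diet of fat, carbohydrate and protein. The length of refeeding and the hour of collection are not given in the sources used here, and no mice with free access to food were part of this comparison. Each library held the tdTomato- cells of 1 mouse, isolated from crypts and villi together. The authors' methods name the small intestine as the source, while a figure legend of theirs names the duodenum. Cre was driven by Cck, so the CCK- fraction is every cell of that suspension in which Cck-Cre had not removed the stop before tdTomato, and not a single cell type.

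The absorptive enterocytes that make up most of this epithelium live for a few days and take up sugars, peptides and fat after a meal. During a fast, glucocorticoid hormones rise and insulin falls, and in many tissues glucocorticoid receptor and FoxO factors then raise genes of fuel sparing and glucose production, while PPAR factors raise genes of fat oxidation. After a meal, insulin and amino acids favor protein synthesis and growth, and sterol-regulated SREBP factors raise the enzymes of cholesterol and fatty acid synthesis when membrane sterol runs short. Molecular chaperones fold new and damaged proteins, and many of their genes are driven by the heat shock factor HSF1.

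The libraries went by their labels for Cck, the gene that drove the Cre behind the sort. It stood at 43.2, 65.3 and 86.0 normalized counts in the fasted CCK- libraries and at 50.1, 30.0 and 27.6 in the refed ones, against 14837 to 32592 in the 6 CCK+ libraries of the same mice. The enterocyte markers were abundant, with Vil1 at 23828 to 33317. The fibroblast gene Col1a1 and the acinar gene Prss2 were at 10.4 or less, and Cela1, also a pancreas marker, was at 12.2 to 35.8. The CCK- libraries summed to between 9900561 and 11371114 normalized counts, with 16656 to 17474 genes above 0, and since these are scaled values, the number of reads behind them is unknown. The Y-linked gene Ddx3y was at 306.8, 310.7 and 400.3 normalized counts in fasted mouse A and refed mice C and D and at 1.4 to 3.9 in the other 3 mice, that is, it was present in 1 of 3 fasted and 2 of 3 refed mice. A covariate for this, chosen after the data were seen, gave 274 called genes against 272 without it, and 226 genes were called in both.

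Of 22042 genes tested, 272 (1.23%) differed between refed and fasted CCK- cells at a Benjamini-Hochberg adjusted p under 0.05 in limma on log2(normalized count + 1), 156 of them (0.708%) higher in refed mice and 116 (0.526%) lower. A gene that passed is named as called below, and each difference is refed minus fasted on that log2 scale, with its SE. The refed and fasted values of all 272 genes did not overlap. These genes were picked by the same contrast, so this is no separate support, and the count over all genes is not given here. Their differences were at least 0.66 in size, with a median size of 1.22, while the median difference over all genes was 0.00. At an unadjusted p under 0.05, limma gave 2635 of the 22042 genes. The counts of list members at that threshold below are to be read beside this share. It includes genes of low value: 12588 of the 22042 had a mean of at least 10 in the CCK- libraries. Of the 272 called genes, 6 were under that mean, and most list members were above it. The share over all genes is thus a low mark for the lists. With only those 12588 genes fitted, 374 were called. The higher genes included cytosolic chaperones, the enzymes of cholesterol synthesis and replication genes. The lower genes included targets of the glucocorticoid receptor and FoxO, Pck1 and transporters of sterols and peptides. The fit took its estimate of spread from all 12 bulk libraries. With the 6 CCK- libraries alone it called 63 genes, 29 of them among the 272 and 10 of them among the 61 called genes named by the rule, and leaving out 1 CCK- library at a time left between 79 (without refed mouse D) and 144 (without fasted mouse F). In bulk RNA, fewer cells of a type and less RNA per cell cannot be told apart.

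**Figure D1:**
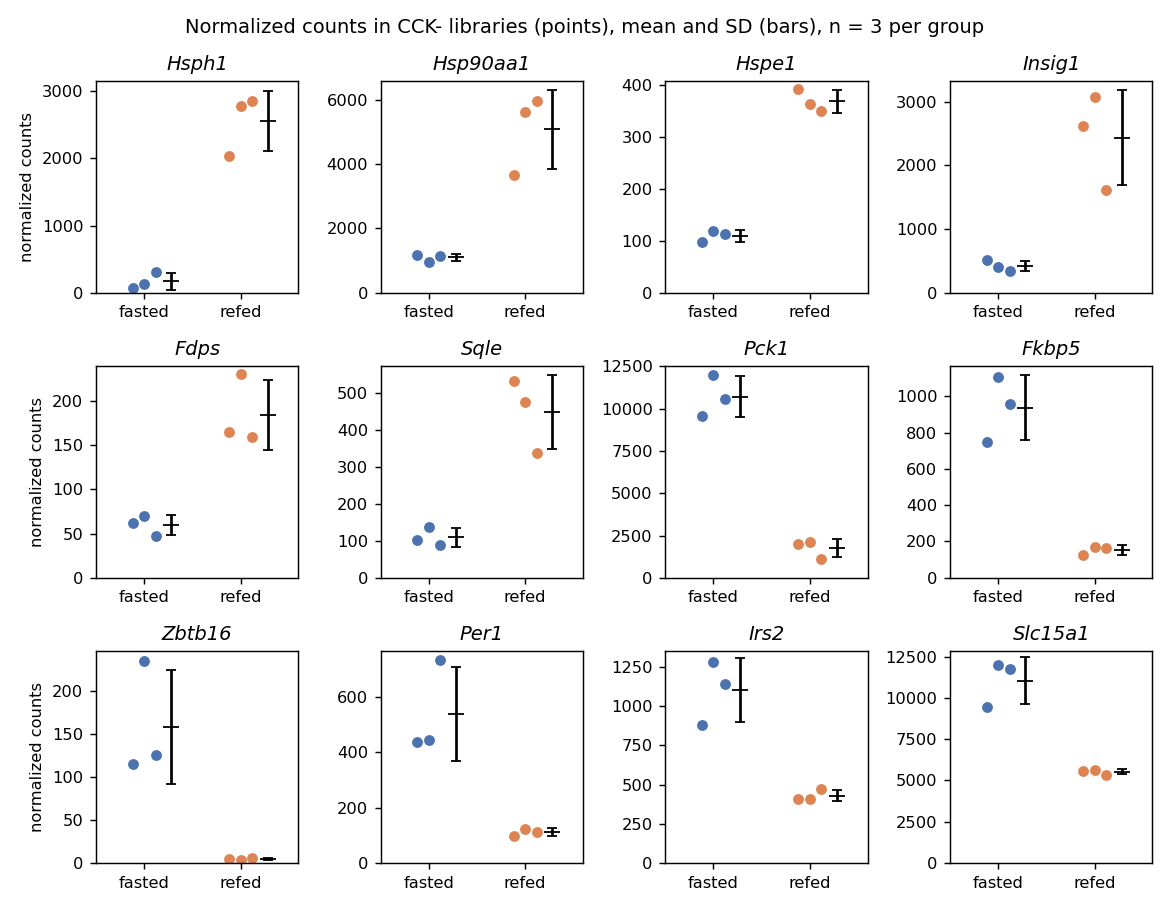
Normalized counts (vertical axes, starting at 0) of 12 named genes in the 3 fasted and 3 refed CCK- libraries; points are libraries, and the black bars are the mean and SD of each group. The refed points of Hsph1 lie between 2036.5 and 2851, above the fasted points at 68.7 to 312.8, and those of Pck1 lie between 1128 and 2143, below the fasted points at 9570 to 11974.

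The cytosolic chaperone list, which also holds the mitochondrial chaperonin genes Hspe1 and Hspd1, had the most called members. Of its 36 genes, 13 rose in refed CCK- cells and 0 fell, 25 had an unadjusted p under 0.05, and the median difference of all 36 was 0.69. Hsph1, the HSP110 nucleotide exchange factor for HSP70, was at 68.7, 129.1 and 312.8 normalized counts in fasted mice and at 2036.5, 2777 and 2851 in refed mice. Every refed library was thus several times above the highest fasted one, and the difference was 4.16 ± 0.46 (adjusted p = 4.09e-04). The inducible HSP90 gene Hsp90aa1 went from 965.6 to 1185 in fasted mice to 3670, 5621 and 5959 in refed mice, a difference of 2.19 ± 0.20 (adjusted p = 1.33e-04).

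The constitutive HSP90 gene Hsp90ab1 rose by 1.69 ± 0.21 (adjusted p = 1.36e-03), and the constitutive HSP70 gene Hspa8 was at 7496, 9810 and 8910 in fasted mice and at 19015, 25219 and 21848 in refed mice. The groups did not overlap in either gene. The mitochondrial chaperonin pair rose as well: the HSP10 gene Hspe1 was at 96.7, 118.9 and 113.1 against 393.4, 363.5 and 349.9 (difference 1.75 ± 0.18, adjusted p = 2.40e-04), and its partner Hspd1, the HSP60 gene, rose by 1.32 (adjusted p = 3.39e-03). Hspa1a and Hspa1b, the stress-inducible HSP70 genes, rose by 3.40 and 3.54. Their sequences are nearly identical, so the split of reads between them is uncertain, and each was called in 5 of the 15 alternative analyses only. Hspa1a spread widely in both groups, at 26.6, 80.2 and 183.0 in fasted mice and at 322.9, 843.0 and 1755 in refed mice. The cells were freed in warm trypsin, and the part of dissociation in the chaperone values was not tested. The co-chaperones Stip1, Ahsa1, Dnaja1 and Hspa4l and the chaperonin subunit Cct8 made up the rest of the 13. Hsf1 itself was at 106.6 to 155.5 in fasted and 188.7 to 201.8 in refed mice and did not pass (adjusted p = 0.13), and Hspb1, a small heat shock protein, was at 6.4 or less in every CCK- library. With the 6 CCK- libraries alone 1 of the 13, Hspe1, was called, and without 1 CCK- library at a time 5 to 9 list members were.

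The promoters of these genes were searched for the letters that HSF1 is known to bind. RefSeq windows of 300 bases on GRCm38.p6, from 250 before to 50 after a start, were available for 10 of the 13 called chaperones, and 6 of these 10 (60%) held GAANNTTC or TTCNNGAA on either strand, against 15% of the 13896 genes of the table that had a window and 13.7% of the 124 higher genes with one. The 250 bases before the start of Hsph1 and Hspe1 are given since they stand for the chaperones with the largest difference and with a call in all 15 alternatives, the heat shock letters in capitals.
Hsph1 (chr5:149636337-149636586, minus strand): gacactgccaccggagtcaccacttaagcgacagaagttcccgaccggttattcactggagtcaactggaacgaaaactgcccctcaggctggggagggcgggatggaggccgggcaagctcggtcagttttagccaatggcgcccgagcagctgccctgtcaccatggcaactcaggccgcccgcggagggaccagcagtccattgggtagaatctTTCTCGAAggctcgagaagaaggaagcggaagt
Hspe1 (chr1:55087898-55088147, plus strand): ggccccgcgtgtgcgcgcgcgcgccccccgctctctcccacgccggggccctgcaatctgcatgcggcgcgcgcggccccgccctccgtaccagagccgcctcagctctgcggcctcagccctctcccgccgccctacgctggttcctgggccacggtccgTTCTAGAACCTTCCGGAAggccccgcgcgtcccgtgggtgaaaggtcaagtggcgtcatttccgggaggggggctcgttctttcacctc
Hsph1 held 1 match, 33 bases before the start, and Hspe1 held 3 that overlap each other, the first 89 bases before the start. Neither overlapped another motif searched, and a match describes letters and not a bound site.

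In the endoplasmic reticulum, which folds secreted and membrane proteins, 2 of 31 listed chaperone and unfolded protein response genes rose and 0 fell, with 14 at an unadjusted p under 0.05 and a median difference of 0.38. Hsp90b1, the HSP90 of this compartment, was at 5022, 4521 and 5803 in fasted mice and at 7951, 12601 and 11434 in refed mice (difference 1.04 ± 0.18, adjusted p = 0.0137). Creld2, a stress-induced isomerase, rose by 1.05 ± 0.20 (adjusted p = 0.0194). Hspa5, the HSP70 known as BiP, had a difference of 0.68 ± 0.19 that did not pass (adjusted p = 0.117), and Xbp1, the transcription factor of this response, had one of 0.26 ± 0.16 (adjusted p = 0.573). Neither called gene held its call with the 6 CCK- libraries alone.

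Cholesterol synthesis and uptake and the cell cycle had the highest medians among the pathway lists, each at 0.83, here over 26 genes. In the cholesterol list 11 genes rose and 0 fell, and 15 had an unadjusted p under 0.05. Insig1, which holds SREBP in the endoplasmic reticulum and is itself an SREBP target, was at 512.2, 399.5 and 346.1 normalized counts in fasted mice and at 2614, 3079 and 1616 in refed mice (difference 2.50 ± 0.25, adjusted p = 1.92e-04).

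Among the enzymes, squalene epoxidase Sqle was at 101.0, 138.6 and 88.5 in fasted mice and at 532.9, 474.9 and 337.5 in refed mice, and its groups stood well apart (difference 2.03 ± 0.24, adjusted p = 7.83e-04). Farnesyl diphosphate synthase Fdps rose by 1.61 ± 0.24 (adjusted p = 4.99e-03). Further called members were the enzymes Hmgcs1, Mvd, Idi1, Fdft1, Lss and Cyp51, which span the pathway from the first committed steps to lanosterol demethylation, and the transcription factor Srebf2, whose difference was 0.87 (adjusted p = 0.0356). The count of called members was 1 with the 6 CCK- libraries alone and 4 to 7 without 1 CCK- library at a time. Of the 7 called members with a promoter window, 1, Hmgcs1, held the sterol element TCACCCCAC, against 0.691% of all genes with a window.

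Fatty acid synthesis genes rose in part. Of 19 genes, 5 rose and 0 fell, with a median difference of 0.28. Fasn, the fatty acid synthase, was at 53.4, 108.1 and 103.5 in fasted mice and at 241.6, 227.2 and 205.0 in refed mice (difference 1.40 ± 0.27, adjusted p = 0.0238). The desaturase Fads1 rose by 1.35 ± 0.25 (adjusted p = 0.0189), and Acly, which makes cytosolic acetyl-CoA, rose by 0.93 (adjusted p = 0.0334). Scd2, a stearoyl-CoA desaturase, was at 7.8, 15.8 and 11.2 against 68.8, 49.1 and 32.8, a difference of 2.02 ± 0.37 (adjusted p = 0.0175).

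Its relative Scd1 went the other way in value, at 4.5, 22.1 and 81.5 in fasted mice and at 2.2, 3.1 and 1.0 in refed mice. The fasted libraries differed among themselves by far more than the refed ones, and the difference of -2.87 ± 0.92 did not pass (adjusted p = 0.176). Mlxipl, which encodes the carbohydrate-sensing factor ChREBP, was at 2333, 2557 and 2426 in fasted mice and at 3959, 4249 and 4713 in refed mice. This was a modest difference with narrow groups (0.82 ± 0.13, adjusted p = 7.83e-03). None of the 5 was called with the 6 CCK- libraries alone, and 1 or 2 were without 1 CCK- library at a time.

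**Figure D2:**
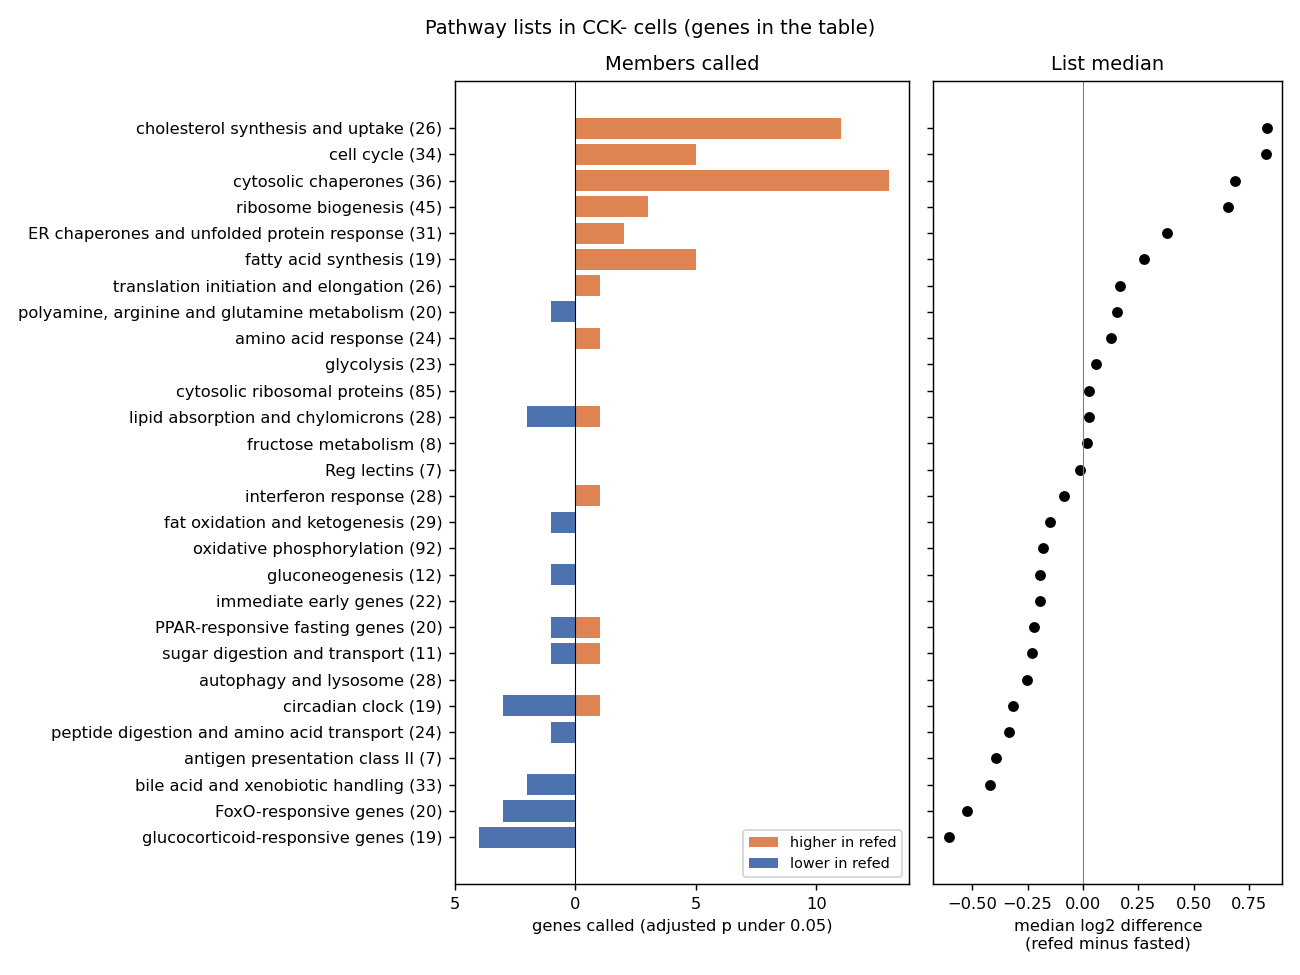
Pathway lists in CCK- cells, with the number of listed genes in the table in brackets. Left, members called higher (right of 0) and lower (left of 0) in refed mice; right, the median log2 difference of all members. Cytosolic chaperones (13 of 36, with the mitochondrial Hspe1 and Hspd1 among them) and cholesterol synthesis and uptake (11 of 26) had the most higher members. Glucocorticoid-responsive genes (4 of 19) had the most lower ones.

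Glucocorticoid-responsive genes had the lowest median among the pathway lists, at -0.61 over 19 genes. In this list 4 genes fell and 0 rose, and 10 had an unadjusted p under 0.05, all lower. Fkbp5, a co-chaperone of the glucocorticoid receptor and one of its standard targets, was at 746.4, 1104 and 958.7 normalized counts in fasted mice and at 123.5, 170.2 and 166.2 in refed mice (difference -2.60 ± 0.21, adjusted p = 6.24e-05). Zbtb16, the transcription factor PLZF, was at 114.4, 234.3 and 125.9 against 4.3, 3.6 and 5.8. It was thus close to absent from every refed library (difference -4.79 ± 0.42, adjusted p = 7.15e-05).

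Klf15, a regulator of amino acid breakdown and gluconeogenesis that is listed under both glucocorticoid and FoxO targets, was at 57.5, 150.8 and 101.8 in fasted mice and at 7.7, 6.3 and 2.7 in refed mice (difference -3.98 ± 0.56, adjusted p = 2.80e-03). Per1, a clock gene that glucocorticoids also induce, was at 435.8, 444.2 and 733.5 against 96.4, 124.2 and 112.1 (difference -2.23 ± 0.26, adjusted p = 6.03e-04). All 4 genes were called when any 1 CCK- library was left out, and Fkbp5 and Zbtb16 also with the 6 CCK- libraries alone. Tsc22d3, the glucocorticoid-induced leucine zipper, had a difference of -0.61 ± 0.27 and did not pass (adjusted p = 0.39), and the kinase gene Sgk1 was at 1213, 3134 and 2667 against 949.0, 1032 and 1071 (adjusted p = 0.226). The receptor gene Nr3c1 was at 881.9 to 1227 in fasted and 816.3 to 1019 in refed mice.

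The 3 called members of this list that had a promoter window, Fkbp5, Per1 and Klf15, all held the E-box CACGTG. So did 10.2% of all genes with a window and 13.1% of the 84 lower genes with one. Several motifs were searched, and 3 genes are too few for a share to be read. None of the 3 held the glucocorticoid half-site pair ACANNNTGT, which 6.18% of all such genes held. The stretches before the starts of Per1 and Fkbp5 are shown as those of the clock gene and the most firmly called gene of the list, with the E-box in capitals.
Per1 (chr11:69098699-69098948, plus strand): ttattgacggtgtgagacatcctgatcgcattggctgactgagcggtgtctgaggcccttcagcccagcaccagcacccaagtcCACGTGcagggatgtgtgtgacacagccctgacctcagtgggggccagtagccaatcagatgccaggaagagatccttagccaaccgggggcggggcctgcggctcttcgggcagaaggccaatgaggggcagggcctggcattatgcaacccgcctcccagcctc
Fkbp5 (chr17:28486150-28486399, minus strand): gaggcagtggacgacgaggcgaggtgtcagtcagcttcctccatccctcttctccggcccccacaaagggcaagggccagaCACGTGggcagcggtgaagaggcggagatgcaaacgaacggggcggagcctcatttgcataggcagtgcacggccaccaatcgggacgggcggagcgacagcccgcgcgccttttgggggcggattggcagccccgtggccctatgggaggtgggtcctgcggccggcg
The E-box lay 166 bases before the start in Per1 and 169 in Fkbp5. Per1 had a further window at another start.

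FoxO-responsive genes fell in part, with 3 of 20 lower, 0 higher, 9 lower at an unadjusted p under 0.05 and a median difference of -0.52. Irs2, the insulin receptor substrate that FoxO factors raise when insulin is low, was at 881.8, 1283 and 1140 in fasted mice and at 408.4, 408.6 and 471.1 in refed mice (difference -1.34 ± 0.17, adjusted p = 1.58e-03). Cited2, a transcriptional coregulator, fell by 1.23 on the log2 scale (adjusted p = 0.0331). Txnip, an inhibitor of glucose uptake, was at 2917 to 3612 against 3701 to 4301. Its difference of 0.26 ± 0.18 did not pass (adjusted p = 0.644). None of the 3 was called with the 6 CCK- libraries alone, and 2 or 3 were without 1 CCK- library at a time.

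Among gluconeogenesis genes 1 of 12 was called. Pck1, the cytosolic phosphoenolpyruvate carboxykinase that commits carbon to glucose production, was at 9570, 11974 and 10572 normalized counts in fasted mice and at 1995, 2143 and 1128 in refed mice. The lowest fasted library was several times above the highest refed one, and the difference was -2.66 ± 0.37 (adjusted p = 2.80e-03), a 6.31-fold lower level. Fbp1, a later enzyme of the pathway, was at 356.0, 679.6 and 170.8 against 577.3, 363.6 and 479.2, and its groups overlapped. Pck1 was called when any 1 CCK- library was left out and not with the 6 CCK- libraries alone.

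**Figure D3:**
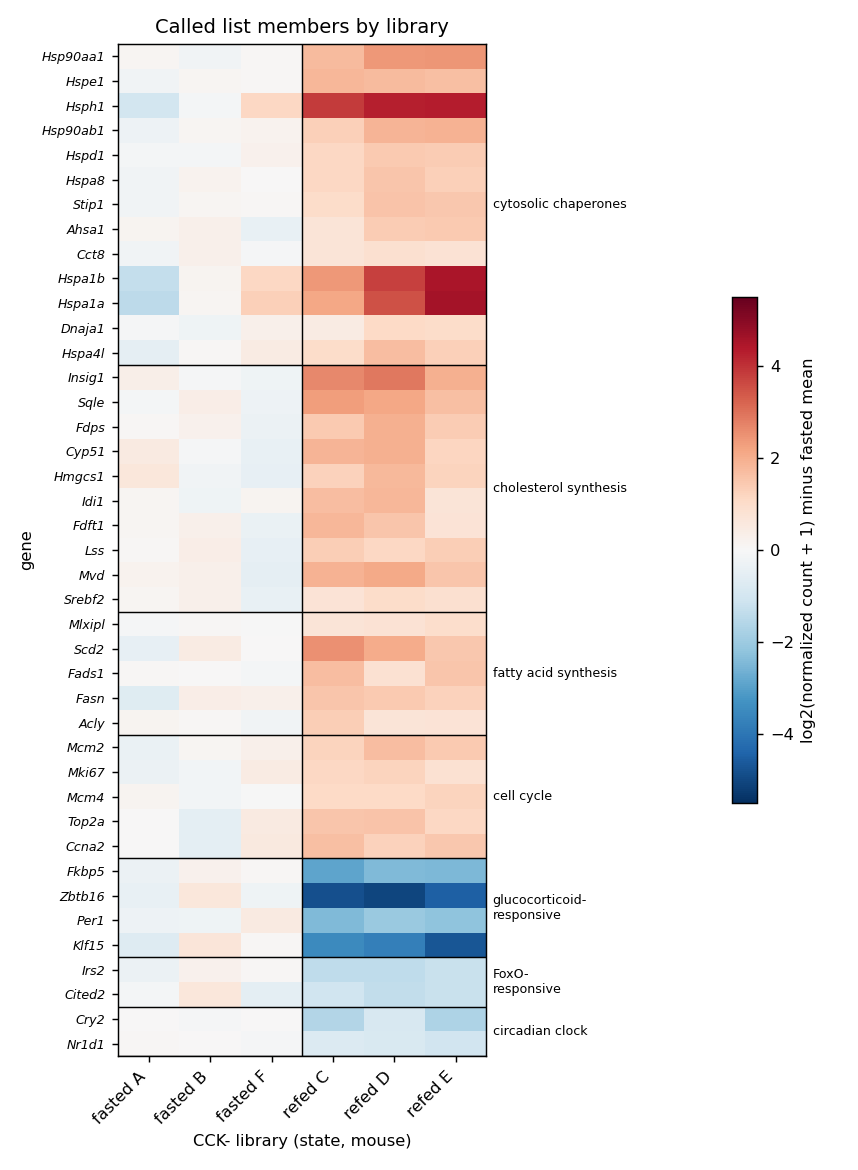
Genes called higher in 4 lists and called lower in 3 lists, in each CCK- library (columns: state and mouse), colored by log2(normalized count + 1) minus the fasted mean of the gene; genes of several lists are drawn once, in the first of them. All refed columns are red for the chaperone, cholesterol, fatty acid and cell cycle genes and blue for the lower glucocorticoid, FoxO and clock genes. Bhlhe40, a clock gene that rose, is not drawn. Each fasted library lies near white for the lower clock genes, while Hsph1, Hspa1a and Hspa1b also differ among the fasted mice.

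Fat oxidation and ketogenesis genes differed little. Of 29 genes 1 fell, 0 rose, and the median difference was -0.15. The peroxisomal thiolase Acaa1a was at 1853, 1733 and 1731 in fasted mice and at 1073, 1061 and 985.1 in refed mice, both narrow ranges (difference -0.77 ± 0.16, adjusted p = 0.036). It was called with the 6 CCK- libraries alone and in 6 of the 15 alternatives. Cpt1a, the gate of fatty acid entry into mitochondria, was at 887.5 to 971.5 against 802.8 to 1045, with a difference of -0.05 and a 95% interval of -0.34 to 0.24.

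PPAR-responsive fasting genes were mixed, with 1 of 20 higher, 1 lower and a median difference of -0.22. With the mouse as a replicate block, 2 were lower, the added gene being Ucp2, a mitochondrial carrier. Pdk4, which blocks pyruvate entry into mitochondria, was at 1027, 2147 and 1530 in fasted mice and at 472.9, 506.5 and 467.7 in refed mice (difference -1.64 ± 0.30, adjusted p = 0.0188). The lipid droplet coat gene Plin2 went up, from 269.1, 283.1 and 382.0 to 730.4, 1124 and 851.8, and its groups did not overlap (difference 1.53 ± 0.22, adjusted p = 3.85e-03). Angptl4, an inhibitor of lipoprotein lipase, was at 670.4, 2503 and 1050 against 618.1, 581.1 and 449.0 and did not pass (adjusted p = 0.407). Neither called gene held its call with the 6 CCK- libraries alone.

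In the absorption of fat, Plin2 rose and 2 of the 28 listed genes fell, the sterol exporters Abcg8 and Abca1. Abcg8, which with its partner returns sterols to the lumen, was at 2281, 3054 and 2297 in fasted mice and at 1018, 932.7 and 1202 in refed mice (difference -1.27 ± 0.21, adjusted p = 8.34e-03). Abca1, which passes cholesterol to apolipoprotein A-I, fell by 1.78 on the log2 scale (adjusted p = 0.0276). These moved opposite in sign to the synthesis genes. The machinery of chylomicrons did not pass: Apoa4 was at 35869 to 62422 against 47202 to 51095, and Mttp, the transfer protein that loads lipid, was at 15267 to 20554 against 18693 to 20681. Plin2, Abcg8 and Abca1 were not called with the 6 CCK- libraries alone.

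In the transport of peptides and amino acids, 17 of 24 differences were below 0. Slc15a1, which carries dipeptides and tripeptides and is also an enterocyte marker, was at 9425, 12005 and 11725 in fasted mice and at 5579, 5654 and 5346 in refed mice (difference -0.99 ± 0.20, adjusted p = 0.0287). It was the single call among 24 genes of peptide digestion and amino acid transport, whose median difference was -0.34, with 9 lower and 2 higher at an unadjusted p under 0.05. Slc6a19, the main transporter of neutral amino acids, was at 10763 to 12749 against 5603 to 6280. These groups did not overlap, and its difference of -0.97 ± 0.26 did not pass (adjusted p = 0.0948). Among 11 sugar genes Slc5a4a, of the sodium-glucose transporter family, fell by 1.49 on the log2 scale (adjusted p = 0.0181), and Mlxipl, also listed here, rose. The glucose transporter Slc5a1 was at 45973, 54818 and 50946 against 38570, 36230 and 33060 and did not pass (adjusted p = 0.452), and the fructose transporter Slc2a5 was at 1405.5 to 3110 against 2604 to 4008, with overlapping groups (adjusted p = 0.456). With the 6 CCK- libraries alone, Slc15a1, Slc5a4a and Mlxipl were not called.

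No member was called among 8 genes of fructose metabolism and 23 of glycolysis. In limma, 1 fructose gene was lower, and 3 glycolysis genes were higher and 1 lower, at an unadjusted p under 0.05. Hk2, the inducible hexokinase, was at 74.9, 39.1 and 50.7 against 51.7, 117.3 and 128.1. Of 20 genes of polyamine, arginine and glutamine metabolism 1 fell, Glud1, the glutamate dehydrogenase, at 13651, 13436 and 14451 in fasted mice and 5849, 7626 and 6951 in refed mice (difference -1.03 ± 0.19, adjusted p = 0.0188). Odc1, which starts polyamine synthesis, was at 696.0 to 1243 against 995.2 to 1323. Of 24 genes of the amino acid response 1 rose, the serine synthesis gene Psat1 (difference 1.74 ± 0.36, adjusted p = 0.0331), while Asns and Atf4 did not pass. Neither Glud1 nor Psat1 was called with the 6 CCK- libraries alone.

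Genes of growth were higher in refed mice in value, and few passed. For ribosome biogenesis 3 of 45 genes rose and 0 fell, but 43 of the 45 differences were above 0, 20 had an unadjusted p under 0.05, and the median was 0.65. Nolc1, a nucleolar phosphoprotein, was at 63.0, 36.0 and 40.9 in fasted mice and at 101.0, 120.6 and 113.9 in refed mice (difference 1.28 ± 0.24, adjusted p = 0.0193). Nop58, of the complex that methylates ribosomal RNA, and Tsr1, a ribosome maturation factor, were the other called genes, with differences of 0.99 and 1.53. Nop56, the partner of Nop58, had a difference of 1.10 ± 0.28 and did not pass (adjusted p = 0.0763). None of the 3 was called with the 6 CCK- libraries alone, and 0 or 1 of them was without 1 CCK- library at a time. The 85 cytosolic ribosomal protein genes had 0 calls and a median difference of 0.03, with 1 higher and 2 lower at an unadjusted p under 0.05 in limma. Of 26 genes of translation initiation and elongation 1 rose, Eif3a, from 2137, 2484 and 2225 to 4166, 3597 and 3602 (difference 0.73 ± 0.13, adjusted p = 0.0181), a call that the 6 CCK- libraries alone did not give. Nuclear genes of oxidative phosphorylation, 92 in all, had 0 calls and a median of -0.18, with 1 higher and 7 lower at an unadjusted p under 0.05.

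Cell cycle genes rose in 5 of 34 cases and fell in 0, with 15 at an unadjusted p under 0.05, all higher, and a median difference of 0.83. Mcm2, a subunit of the replicative helicase, was at 30.7, 43.4 and 48.7 in fasted mice and at 94.2, 131.4 and 110.4 in refed mice (difference 1.44 ± 0.25, adjusted p = 0.0108). Mki67, the proliferation marker, was at 364.9, 403.3 and 623.7 against 992.1, 1058 and 806.6 (difference 1.07 ± 0.22, adjusted p = 0.0321). Mcm4, Top2a and Ccna2 were the other called genes. None was called with the 6 CCK- libraries alone, and 0 to 4 of the 5 were without 1 CCK- library at a time.

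Sums of crypt markers were higher in value in refed mice. The summed level of 10 stem and crypt base markers was 1492 to 1824 normalized counts in fasted and 1843 to 2286 in refed mice, and that of 10 Paneth markers 3619 to 4884 in fasted and 4989 to 17188 in refed mice. The groups did not overlap in either sum, but the gaps were narrow, 1824 to 1843 and 4884 to 4989. The highest Paneth sum was that of refed mouse D. No single marker of either list was called in limma, and 3 and 1 were higher at an unadjusted p under 0.05. Lyz1, the Paneth lysozyme, was at 1742, 1088 and 2594 in fasted mice and at 1970, 10138 and 4558 in refed mice. Olfm4, a crypt base gene, was at 185.3 to 243.1 against 323.6 to 508.7 (adjusted p = 0.253). The part of this in the cell cycle and ribosome biogenesis values was not tested.

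For the other cell types, goblet marker sums were 23492 to 46944 in fasted and 32526 to 48850 in refed mice, with 1 of 10 markers called, the disulfide isomerase Agr2 (difference 1.00, adjusted p = 0.0297). Agr2 was called in 6 of the 15 alternatives, and neither with the 6 CCK- libraries alone nor when any 1 CCK- library was left out. Enterocyte sums were 667444 to 873620 against 627353 to 691385, with Slc15a1 the single called marker of 15. Tuft sums were 481.6 to 1133 against 421.9 to 1301, enteroendocrine sums 2001 to 2431 against 1592 to 3214, and immune sums 1076 to 1709 against 841.0 to 1241, and no marker of these lists was called in limma (at an unadjusted p under 0.05, 0 tuft, 3 enteroendocrine and 2 immune markers). Stromal markers summed to 1322 to 1437 against 1363 to 1746, mostly from Pecam1, and pancreas markers to 76.5 to 125.7 against 44.1 to 131.4, with Prss2 and Cpa1 at 0 throughout. The ileal genes Fgf15 and Fabp6 were listed at 0 in all 6 libraries, and no gene of the lists for proximal or distal position or for the top or bottom of the villus was called in limma, with 1 higher proximal, 3 lower distal, 2 lower villus top and 1 higher villus bottom gene at an unadjusted p under 0.05. The 7 distal genes summed to 15230 to 17949 in fasted and 9428 to 10783 in refed mice, without overlap, with 5 differences below 0, 0 above and a median of -0.40. The part of position along the intestine in the results was not tested.

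**Figure D4:**
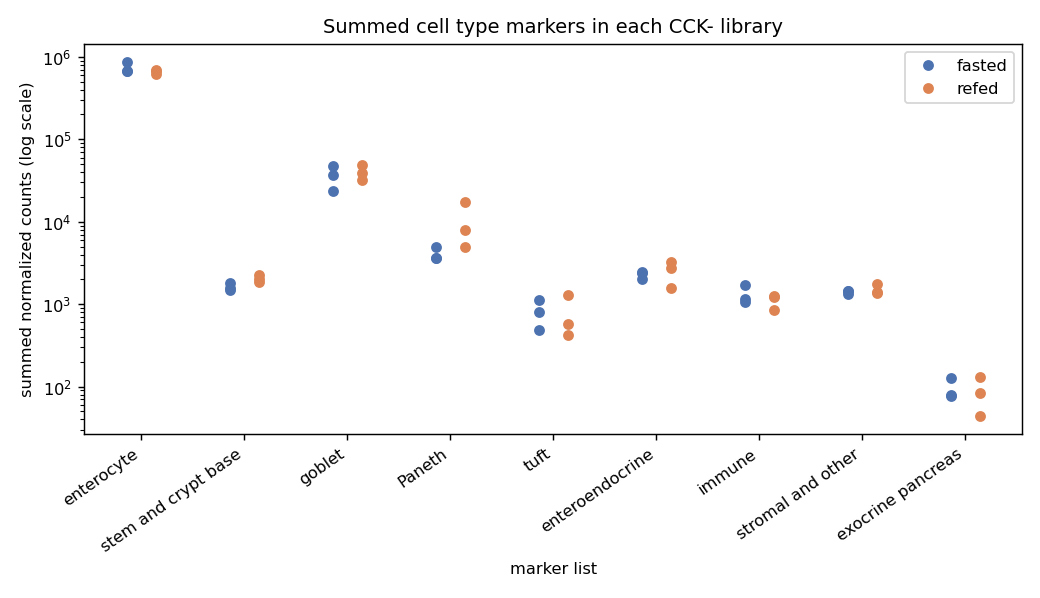
Summed normalized counts (log axis) of cell type marker lists in each CCK- library; each point is 1 mouse. The Paneth sums of the refed mice (4989 to 17188) lie above those of the fasted mice by a narrow gap. So do their stem and crypt base sums (1843 to 2286). The goblet, tuft, enteroendocrine, immune and pancreas sums overlap.

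Circadian clock genes changed in 4 of 19 cases, 3 lower and 1 higher. Beside Per1, the repressor Cry2 was at 354.7, 330.6 and 356.6 in fasted mice and at 113.8, 189.3 and 107.7 in refed mice (difference -1.38 ± 0.25, adjusted p = 0.0182). Nr1d1, which encodes REV-ERB alpha, was at 5228, 5202 and 4790 against 2969, 2877 and 2452 (difference -0.88 ± 0.18, adjusted p = 0.0287), and its groups were narrow and far apart. Bhlhe40, a repressor of the clock, rose from 1253, 878.6 and 1575 to 2182, 3209 and 3121 (difference 1.22 ± 0.24, adjusted p = 0.0237). Per2 was higher in value, at 359.6 to 1005 against 933.3 to 1670, and Arntl, the BMAL1 gene, was at 53.8 to 107.3 against 70.9 to 134.4, and neither passed. The hour of collection is not known here, and hour and feeding state cannot be told apart if they differed. With the 6 CCK- libraries alone none of the 4 was called, and 1 or 2 of them were without 1 CCK- library at a time.

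Genes of bile acid and xenobiotic handling were mostly lower in value, with 26 of 33 differences below 0, a median of -0.42, 2 genes lower, 0 higher, and 12 lower and 2 higher at an unadjusted p under 0.05. Nr1i2, the pregnane X receptor, was at 1039, 1454 and 1344 in fasted mice and at 772.4, 669.8 and 730.6 in refed mice (difference -0.81 ± 0.18, adjusted p = 0.0433). The drug exporter Abcb1a fell by 0.77 on the log2 scale (adjusted p = 0.0356). Cyp3a11, a target of that receptor, was at 7390 to 12581 against 4628 to 7465, and its difference of -0.71 ± 0.35 did not pass (adjusted p = 0.457). Neither called gene was called without 1 CCK- library, whichever it was.

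No gene was called among 28 genes of autophagy and lysosome, 22 immediate early genes, 7 of class II antigen presentation or 7 Reg lectins. In limma at an unadjusted p under 0.05, 1 autophagy gene was higher and 3 lower, 3 immediate early genes were higher and 2 lower, and 0 of the other lists passed. The autophagy list had a median of -0.25, and Sqstm1, the cargo receptor p62, was at 331.8 to 404.4 against 226.5 to 457.3. Fos, an immediate early gene also raised by tissue dissociation, was at 5312, 4928 and 5503 in fasted mice and at 3251, 4009 and 3923 in refed mice (adjusted p = 0.207). Reg3b, an antimicrobial lectin, was at 21633 to 56267 against 21573 to 51593, and Cd74 at 3161 to 8974 against 2530 to 5650. These groups overlapped.

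The interferon response list of 28 genes held 1 call, Gvin1, a large interferon-inducible GTPase and the gene with the largest difference of all named genes. It was listed at 0 in all 3 fasted CCK- libraries and at 218.9, 195.7 and 159.0 in the refed ones, so no fold is given. In CCK+ cells of the same fasted mice it was at 106.6, 320.2 and 384.2. Isg15, a more usual member of this response, did not pass, with a difference of -0.11 ± 0.41. Gvin1 has near-identical copies, so its value rests on how reads were shared among them and is uncertain. The copy Gvin2 was at 25.9 to 57.4 against 25.9 to 38.7.

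Among the other genes with the largest rises, Acta1, the skeletal muscle actin, was at 14.9, 18.9 and 27.3 in fasted mice and at 406.4, 355.1 and 942.8 in refed mice (difference 4.63 ± 0.40, adjusted p = 6.24e-05). The other muscle actin genes Acta2, Actc1 and Actg2 were at 3.0 or less in every CCK- library, and Actb, the main cytoplasmic actin, was at 27131 to 37460 against 27646 to 36748. Actins share much sequence, so the assignment of reads to Acta1 is uncertain. Cntnap1, a membrane protein known from myelinated axons, was at 63.4, 64.8 and 46.8 against 342.5, 527.8 and 576.7 (difference 3.01 ± 0.29, adjusted p = 1.47e-04). The dynein light chain Dynll1 was at 28.9, 47.6 and 57.8 against 294.6, 224.0 and 180.6, and Dipk2a at 77.6, 119.0 and 98.2 against 530.4, 592.9 and 305.6. In each of these genes every refed library was above every fasted one. Fam107b rose by 2.61 ± 0.40, Paqr9 by 3.08 ± 0.65 and Hells, a chromatin remodeler of dividing cells, by 2.39 ± 0.52. Paqr9 and Hells were each called in 6 of the 15 alternatives. With the 6 CCK- libraries alone Cntnap1 kept its call, and Acta1, Dynll1, Dipk2a, Fam107b, Paqr9 and Hells did not. Hells varied among the refed mice, at 405.4, 60.9 and 280.8, and its difference was 3.20 without refed mouse D.

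Among the largest falls outside the lists, Fut4, a fucosyltransferase, was at 576.7, 841.8 and 632.6 in fasted mice and at 135.4, 102.8 and 111.8 in refed mice (difference -2.53 ± 0.26, adjusted p = 2.40e-04). Cyp27a1, the sterol 27-hydroxylase, was at 938.8, 938.5 and 962.7 against 208.1, 212.8 and 273.9, with little spread in either group (difference -2.04 ± 0.27, adjusted p = 2.04e-03). Retreg1, a receptor for autophagy of the endoplasmic reticulum, was at 1184, 1652 and 1346 against 376.0, 293.8 and 282.3 (difference -2.13 ± 0.20, adjusted p = 1.39e-04). These 3 genes were called in all 15 alternatives. The kinase gene Pak6 fell by 2.66 ± 0.34 and Ntn4, a netrin of the basement membrane, by 2.62 ± 0.38, both called when any 1 CCK- library was left out. Ypel3 fell by 2.99 ± 0.50, with fasted mouse A at 324.1 and the other fasted mice at 68.8 and 59.4, and its difference was -2.22 without mouse A. It was called in 10 of the 15 alternatives. The uncharacterized 1700109H08Rik fell by 2.13 ± 0.45 (adjusted p = 0.0353), a call held in 5 of the 15 alternatives. Pak6, Ntn4, Ypel3 and 1700109H08Rik were not called with the 6 CCK- libraries alone.

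Refeeding differences in CCK+ cells are set beside these for the same 6 mice, whose paired libraries are not independent. Hsph1 differed by 3.40 in CCK+ cells and by 4.16 in CCK- cells, Hsp90aa1 by 2.08 and 2.19, and Insig1 by 1.63 and 2.50. Pck1 differed by -3.35 in CCK+ cells and -2.66 in CCK- cells, Fkbp5 by -1.55 and -2.60, and Zbtb16 by -2.94 and -4.79. The test of the difference between the fractions called 1 gene of 22042 (0.00454%), Gvin1, with 1378 genes at an unadjusted p under 0.05. For Per1 the difference was -2.23 in CCK- cells and -0.80 in CCK+ cells, and the test between them did not pass (difference -1.43, 95% interval -2.22 to -0.64, adjusted p = 0.565).

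**Figure D5:**
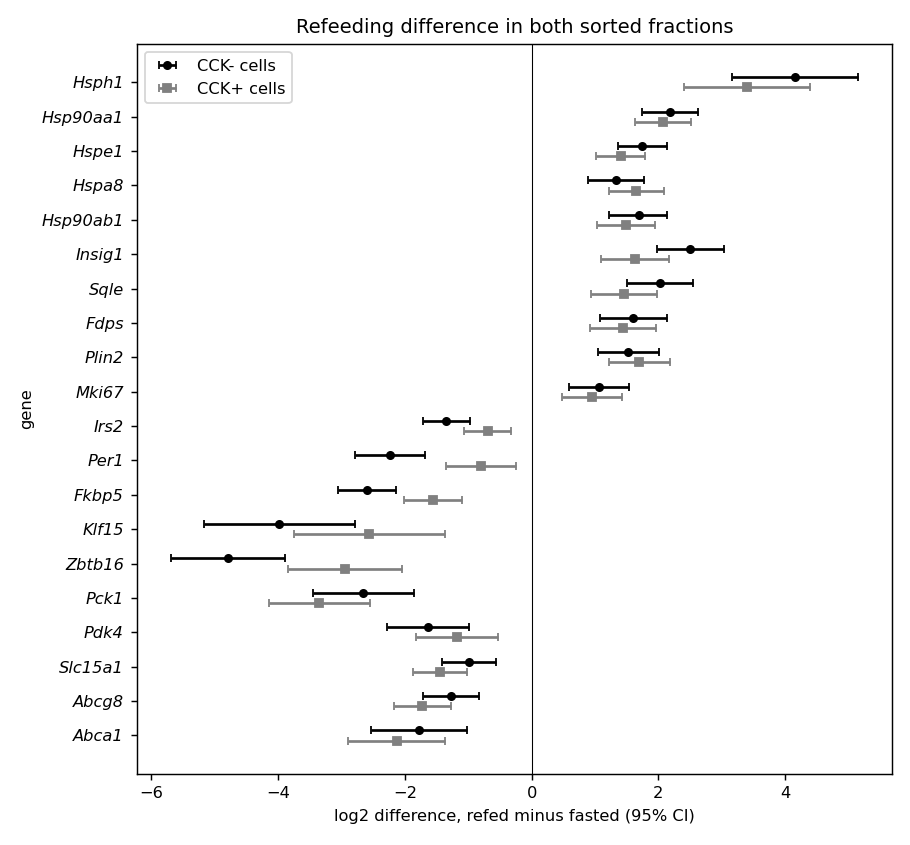
Log2 difference, refed minus fasted, of 20 named genes in CCK- cells (black circles) and CCK+ cells (gray squares), with bars for the 95% confidence interval of limma. All 20 genes have the same sign in both fractions, from 4.16 and 3.40 for Hsph1 to -4.79 and -2.94 for Zbtb16. They were picked from the 272 called genes, of which 259 had the same sign in CCK+ cells.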

How the data were processed

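Each library came from the tdTomato- or tdTomato+ cells of 1 mouse, amplified with the Ovation RNA-Seq System V2. According to the authors and their processing notes, reads were trimmed with Trim Galore 0.6.7, quantified with Salmon 1.6.0 against the GRCm39 cDNA transcriptome, summed per gene with tximeta and divided by DESeq2 normalization factors after genes with 0 or 1 count were removed. The deposited values are thus normalized counts (a signal, not whole reads): about 1% are whole, so depth in reads is unknown and no count model was used. Gene positions on that build are not given here. Record titles name CCK+ cells for all 4 bulk groups, and the cell type labels and the table were followed.

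All 22042 genes (2797 without a symbol) were tested with limma 3.58.1 in R 4.3.3 on log2(normalized count + 1), with 4 group means over 12 libraries, 8 residual degrees of freedom, a mean-variance trend and Benjamini-Hochberg adjustment. The letter of a library names the mouse, and CCK- and CCK+ libraries of a mouse deviated together (r 0.0773 to 0.124 over 13517 genes, at most -0.0184 between mice). Deviations were taken from group means, so positive values within mice by themselves lower those between mice. The values between mice are therefore no separate support. Refed and fasted mice were different animals.

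Members and lists were chosen with earlier results of these data known. Genes were named as the 12 called genes with the largest difference in each direction and a mean of at least 100 in the higher group, up to 4 called genes per list by adjusted p, preset anchors of each list, and up to 6 genes per direction that differed between fractions. A few genes that the rule names are not reported here. Further list members and relatives were named after their values were seen. Promoters are RefSeq windows on GRCm38.p6 and are not from the build of the files. Besides the motifs printed, TGACGTCA, TTATGTAA and GTAAACA were searched on both strands. PPAR and endoplasmic reticulum stress elements were not searched.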

Additional observations from a re-analysis of the deposited data

Results flagged for a closer look

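Gvin1 was singled out because its refeeding difference was not the same in both fractions by the test of the difference itself. The difference in CCK- cells minus that in CCK+ cells was 6.55 on the log2(normalized count + 1) scale, with an adjusted p of 1.61e-04 in limma. In CCK+ cells Gvin1 was at 106.6, 320.2 and 384.2 normalized counts in fasted mice and at 476.3, 468.3 and 499.1 in refed mice, while all 3 fasted CCK- libraries listed it at 0. Its size therefore depends on the pseudocount: it was 7.54 with a pseudocount of 0.5 and 3.33 with one of 10, where the test between the fractions did not pass (adjusted p = 0.146). No group was large enough for a check of single libraries standing apart.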

How the results depend on the processing

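The count of called genes was 272. It came to 168 with quantile normalization, 66 without the mean-variance trend, 63 with the 6 CCK- libraries alone and 79 to 144 with 1 CCK- library left out. Of the 272, 143, 58, 29 and 68 to 120 were called with the same sign in those fits. It was 232 to 374 under the other pseudocounts, the filter on low values, scaling to the same sum and the Ddx3y covariate. With the mouse as a replicate block (correlation 0.0962) it was 283, and the block moved no count of calls by over 1.5 times except the lower PPAR-responsive genes, 2 in place of 1. For the difference between fractions, 1 gene was called in the main analysis, 0 with a pseudocount of 10 (1490 at an unadjusted p under 0.05), 2 with quantile normalization, without the trend or with the Ddx3y covariate, and 1 to 6 with 1 CCK- library left out. Fits with fewer libraries have fewer residual degrees of freedom. The cause of the other shifts was not tested. Over 15 alternatives, 16 of the 272 genes and 9 of the 61 called genes named by the rule were called in each. No called named gene changed sign. With scaling to the same sum, quantile normalization or 1 CCK- library left out, medians of the pathway lists changed sign in at least 1 setting for fructose metabolism, lipid absorption, interferon response, class II antigen presentation, Reg lectins and cytosolic ribosomal proteins, and in none of these settings for the other pathway lists. Groups of 3 limit the precision, and the depth in reads is unknown.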
